A study of Mus musculus with 6 samples.

Results

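The nuclear genes of the oxidative phosphorylation system were examined in brain endothelial cells of young mice with and without the cerebral cavernous malformation gene Pdcd10 (Ccm3), and with and without rapamycin. Oxidative phosphorylation passes electrons from NADH and succinate through complexes I to IV of the inner mitochondrial membrane to oxygen, and complex V (ATP synthase) uses the resulting proton gradient to make ATP. Most of its subunits are encoded in the nucleus and imported, while a small core is encoded in mitochondrial DNA, so the complexes are built from the products of both genomes. Endothelial cells of the brain line the blood-brain barrier, and rapamycin inhibits mTORC1, a kinase complex known to control the making of mitochondrial proteins.

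Members were taken by name, from the symbols of complex I (Ndufa, Ndufb, Ndufc, Ndufs, Ndufv), complex II (Sdha to Sdhd), complex III (Uqcr), complex IV (Cox4 to Cox8) and complex V (Atp5), without Ndufa4l2 and names ending in "-ps". The rule itself uses names and a minimum level and no difference between groups. Of 96 such symbols, 92 had at least 30 unique molecular identifiers (UMIs, each 1 captured transcript) over endothelial cells, out of 32285 features. The lowest inside this limit was Cox7a1 with 185 UMIs in all. Outside it lay Cox7b2, Cox6a2, Cox8b and Cox8c, each with 1 UMI. The members comprise 36 genes of complex I, 4 of complex II, 8 of complex III, 15 of complex IV (with Ndufa4, which belongs there despite its name), 17 of complex V and 12 assembly factors (Ndufaf and Sdhaf genes) caught by the same prefixes.

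The study holds 6 single-cell libraries of cells sorted by flow cytometry, 1 library for each group, and the gate of the sort is not given in the sources used here. All mice carried Mfsd2a-CreERT2, a tamoxifen-inducible Cre under a gene of blood-brain barrier endothelium. WT libraries had this Cre alone and KO libraries had Mfsd2a-CreERT2:Pdcd10fl/fl, both with tamoxifen at postnatal day (P) 1 and harvest at P6 or P10. A further pair of KO libraries received tamoxifen with vehicle or with rapamycin and was harvested at P9, with the tamoxifen day not in the labels. The labels do not say how many animals were pooled, and since each group is a single library, differences within a pair lack a replicate check and are given without p-values.

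Cells with 500 or more genes and no more than 10% mitochondrial UMIs were called endothelial when they held UMIs of at least 3 of the 6 genes Pecam1, Cldn5, Cdh5, Flt1, Esam and Egfl7. This gave 14165 of 18568 barcodes, from 857 (KO P6) to 3768 (vehicle) cells and from 9883763 to 36629558 endothelial UMIs a library. Levels are UMIs per 1000000 endothelial UMIs (CPM), so they are shares of the captured RNA. Intervals are exact, at 95%, and cover only the error of counting. The tissue is retina by the labels and brain by the title and design of the series, and the 6 photoreceptor markers together reached at most 1.17 CPM. Pdcd10 measured 104 CPM in WT P6, 58.4 in KO P6, 102 in WT P10, 58.2 in KO P10, 44.9 with vehicle and 80.6 with rapamycin, so the rapamycin library had the highest Pdcd10 level of the KO libraries. Cells with mitotic markers made up 14.1% of the WT and 19.6% of the KO endothelial cells at P6, 3.90% and 12.1% at P10, and 26.7% with vehicle against 8.98% with rapamycin. Vehicle and rapamycin libraries shared 420 barcodes, of which only 3 were endothelial in both. Haemoglobin and other red cell markers reached 15540 CPM in WT P10 and 4455 CPM in KO P10, 104 CPM with vehicle and 1704 CPM with rapamycin, and the choroid plexus marker sum was 1767 CPM with rapamycin and up to 33.3 CPM elsewhere. Xist, the RNA of the inactive X chromosome, measured 965 CPM in WT P6 and at most 0.273 CPM in the other libraries.

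Summed over the 92 members, the share of endothelial UMIs hardly differed between genotypes and was lower with rapamycin. The sum was 27196 CPM in WT P6 and 27984 CPM in KO P6, a ratio of 1.03 (interval 1.02 to 1.03). At P10 it was 24122 CPM in WT and 24807 CPM in KO, again a ratio of 1.03 (1.02 to 1.03). With vehicle the sum was 26843 CPM and with rapamycin 20315 CPM, a ratio of 0.757 (0.754 to 0.759). The rapamycin library was the lowest of all 6, and the other 5 lay between 24122 and 27984 CPM.

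All 5 complexes were lower with rapamycin. Complex V, the ATP synthase, was furthest below the vehicle level, at 0.730 of it (0.725 to 0.734), from 8272 to 6037 CPM. Complex I, the NADH dehydrogenase, was at 0.745 (0.740 to 0.750) and complex IV, cytochrome c oxidase, at 0.770 (0.765 to 0.775). Complex II, succinate dehydrogenase, was at 0.791 (0.766 to 0.817), and complex III, the cytochrome bc1 complex, at 0.819 (0.810 to 0.827). By these sums the intervals of complexes V, I and IV do not overlap. Those of II and III do, and that of II also overlaps that of IV. The assembly factors stood at 0.838 (0.813 to 0.864). The sums weight abundant members, and at the minimum level given below 3 of 77 went the other way. Uqcrh of complex III went from 656 to 729 CPM, Cox7a2l of IV from 481 to 698 and Ndufa6 of I from 224 to 252. The median log2 ratios of single members were -0.41 for I, -0.29 for II, -0.42 for III, -0.46 for IV and -0.47 for V. By these medians complex III lay near complex I. Without mitotic cells the sum over all members had a log2 ratio of -0.36, against -0.40 in all endothelial cells. The part of the higher Pdcd10 level and of the choroid plexus and red cell RNA of the rapamycin library in this ratio was not tested. In every library the members' summed share was higher in mitotic than in other endothelial cells, from 1.07-fold (rapamycin) to 1.16-fold (WT P10).

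Between genotypes the complexes moved little and not all one way. At P6 the KO to WT ratio was 1.02 for complex I (1.01 to 1.04), 1.08 for II (1.04 to 1.12), 0.969 for III (0.955 to 0.984), 1.04 for IV (1.03 to 1.05) and 1.04 for V (1.03 to 1.05). At P10 it was 1.01 for complex I (1.01 to 1.02), 1.16 for II (1.12 to 1.19), 0.990 for III (0.979 to 1.001), 1.04 for IV (1.03 to 1.04) and 1.04 for V (1.03 to 1.05). By these sums complex II had the highest ratio of the complexes and complex III the lowest at both ages. In complex III the abundant member Uqcrh was lower in KO, at 539 against 735 CPM at P6 and 626 against 757 CPM at P10. Of the 8 members of complex III 5 were above 0 and 3 below at each age, with median log2 ratios of 0.06 and 0.04. By such medians complex IV was the highest at P6 (0.13) and complex V the lowest (0.05). Under the other processing settings the log2 ratio of complex I at P10 ranged from -0.02 to 0.04 and that of complex III from -0.04 to 0.01, so neither has a settled sign there. The 12 assembly factors had ratios of 1.13 (1.08 to 1.19) at P6 and 1.12 (1.08 to 1.16) at P10.

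**Figure D1:**
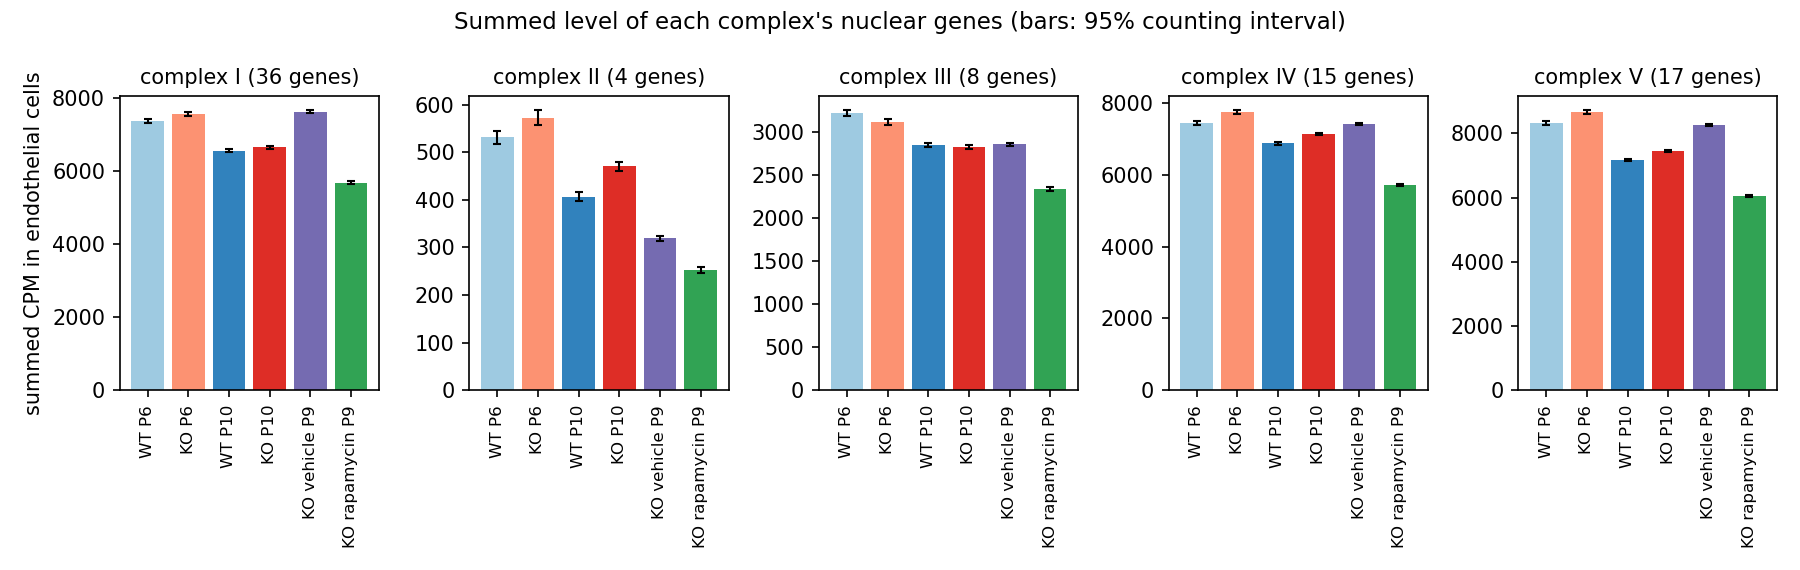
Summed CPM in endothelial cells (vertical axis, from 0) of the nuclear genes of complexes I to V in each library, with 95% counting intervals. The rapamycin bar is the lowest in each panel, from 252 CPM in complex II to 6037 CPM in complex V.

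Single members were compared where the higher library of a pair had at least 20 CPM and 30 UMIs, and counted as higher when at least 25% above the other library and as lower when at least 20% below it, which is 0.32 on the log2 scale. In the P9 pair 56 of 85 such members were lower with rapamycin and 1 was higher, where over all 6197 features 26.3% were lower and 17.9% were higher. Their median log2 ratio was -0.41, against -0.06 over all features. By complex, the lower members were 26 of 36 in complex I, 2 of 4 in II, 5 of 8 in III, 9 of 12 in IV and 13 of 17 in V. Of the 8 assembly factors at this level only Ndufaf8 was lower. At P6, 7 of 87 members were higher in KO and 3 were lower, where 16.7% and 11.7% of all features were. At P10, 9 were higher and 9 lower of 87, against 22.1% and 15.4% of all features. As shares of the members these counts are 8.05% and 3.45% at P6 and 10.3% each way at P10. The median log2 ratios were 0.08 at P6 and 0.10 at P10, against 0.01 and 0.06 over all features.

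**Figure D2:**
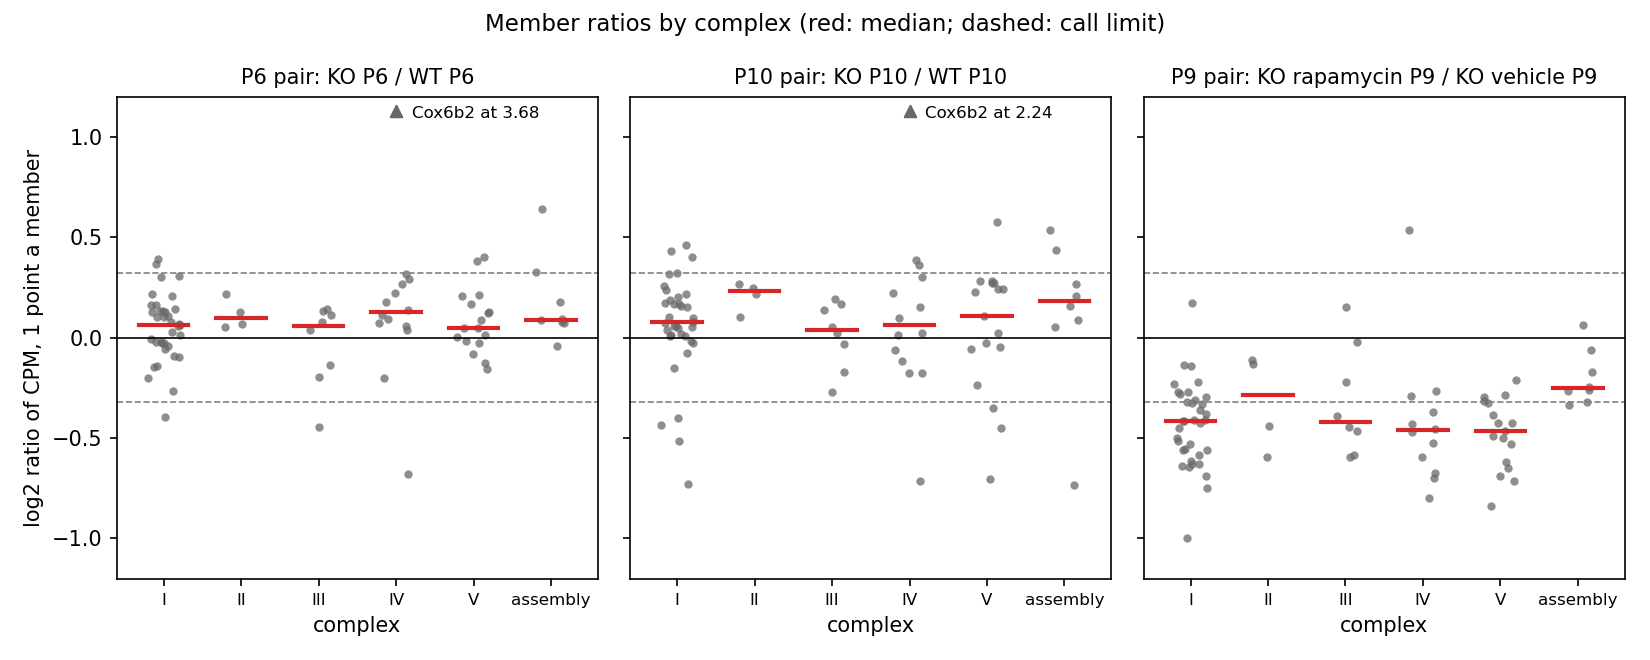
Log2 ratio of CPM (vertical axis) of each member at the minimum level, by complex, in the 3 pairs; red lines are medians and dashed lines the limit of 0.32, and a triangle at the upper edge stands for Cox6b2, whose value of 3.68 (P6) or 2.24 (P10) lies above the axis. Most members lie near 0 in the genotype pairs and below 0 in the P9 pair, where 81 of 85 are negative.

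The promoters of a few members are shown because these genes lead the comparisons or carry the motifs that are most frequent in the set. RefSeq promoters (GRCm38.p6, 250 bases before to 50 after the start) were matched for 77 of the 92 members, by Ensembl identifier or else by symbol. Motifs were searched on both strands as exact letters. The motif of nuclear respiratory factor NRF1, which reads GCGC, any base and then TGCGC, was in 26.0% of member promoters and 4.82% of all 27025 promoters. The ETS motif, CCGGAAG, which GABP binds, was in 27.3% against 9.14%. The YY1 motif, AAGATGGCG, was in 9.09% against 1.48%, and the ERR motif, TCAAGGTCA, in 2.60% against 0.407%. At least 1 of these was in 53.2% of member promoters and 14.4% of all, and no matches overlapped within member promoters. Each sequence below gives the 120 bases before the RefSeq start, 5′ to 3′ on the gene's minus strand, with NRF1 and ETS matches in capitals.
Cox6b2 (chr7:4753095-4753214): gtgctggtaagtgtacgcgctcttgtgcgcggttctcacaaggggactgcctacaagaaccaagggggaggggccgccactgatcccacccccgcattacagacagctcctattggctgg
Ndufa5 (chr6:24527691-24527810): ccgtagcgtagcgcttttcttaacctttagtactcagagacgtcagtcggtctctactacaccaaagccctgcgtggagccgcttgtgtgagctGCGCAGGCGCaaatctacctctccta
Atp5k (chr5:108434400-108434519): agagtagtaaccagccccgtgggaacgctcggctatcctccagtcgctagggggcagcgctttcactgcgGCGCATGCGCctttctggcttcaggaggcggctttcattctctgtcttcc
Sdhd (chr9:50603850-50603969): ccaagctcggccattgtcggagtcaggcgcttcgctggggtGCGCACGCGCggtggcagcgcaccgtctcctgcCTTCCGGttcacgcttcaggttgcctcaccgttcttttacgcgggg
Uqcrh (chr4:116075071-116075190): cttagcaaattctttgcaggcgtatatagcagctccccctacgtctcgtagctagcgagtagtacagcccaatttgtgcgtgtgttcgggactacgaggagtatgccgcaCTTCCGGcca

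The NRF1 match lies at bases -26 to -17 from the start in Ndufa5 and -50 to -41 in Atp5k, which has an ETS match after the start, at 12 to 18. Sdhd holds NRF1 at -79 to -70, ETS at -46 to -40 and, after the start, ERR at 36 to 44, and Uqcrh has an ETS match at -10 to -4. In Cox6b2 none of the 4 motifs was found in the window. A match is a run of letters and not a shown binding site. Medians by motif were taken over all 77 matched members, also those under the minimum level used for single members above. The 20 members with an NRF1 match had a median log2 ratio of -0.41 in the P9 pair and the 57 without it -0.43. At P6 these medians were 0.16 with a match and 0.07 without, and at P10 0.17 and 0.07. For ETS the P9 medians were -0.41 with a match (21 members) and -0.43 without (56 members), and at P6 and P10 they were 0.09 and 0.10 with a match and 0.09 and 0.12 without. Members with a YY1 match were 7, with a P9 median of -0.61, and the 70 without it were at -0.41. At P6 and P10 these were 0.13 and 0.11 with a match and 0.08 and 0.10 without.

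Genotype was tested over the 4 libraries of P6 and P10 with edgeR's quasi-likelihood test, with harvest age as a term, 1 residual degree of freedom and Benjamini-Hochberg adjustment over all 13165 features. Of 92 members 1 rose in KO at an adjusted p of at most 0.05 and 0 fell, where 3.05% of all features rose and 1.69% fell. At an unadjusted p under 0.05 the counts were 12 higher and 4 lower, against 12.9% and 10.4% of all features. DESeq2 also called 1 higher and 0 lower member, against 2.63% and 1.14% of its 12399 features with an adjusted p. The 1 residual degree of freedom comes from how far the KO to WT ratio differs between P6 and P10. A gene whose ratio differs between the ages thus has a larger residual. The libraries differ in genotype or harvest age and so come from different animals, but the number of animals in each is not in the labels. Any spread between animals is mixed in the residual with the change of the ratio with age. These p-values thus do not measure the spread between animals of 1 group.

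The member that rose was Cox6b2 (ENSMUSG00000051811, chromosome 7, 4751792 to 4753094, minus strand), the isoform of the complex IV subunit 6B best known from testis. It measured 6.90 CPM in WT P6 and 90.9 CPM in KO P6, 6.32 CPM in WT P10 and 30.2 CPM in KO P10, and 17.5 CPM with vehicle and 5.92 CPM with rapamycin. All KO libraries without rapamycin lay above both WT libraries, and the rapamycin library lay within the counting intervals of the WT levels. The ratio was 13.2 (10.5 to 16.8) at P6, 4.78 (3.96 to 5.80) at P10 and 0.338 (0.278 to 0.408) in the P9 pair. The edgeR log2 fold change was 2.92 (SE 0.32, adjusted p 0.0106), higher in both pairs. Fits that left out 1 library had 1 library of a genotype and no age term, so they give an effect size only. The log2 fold change was 3.18 without WT P6, 2.19 without KO P6, 3.10 without WT P10 and 3.73 without KO P10. The call was lost with all 4 libraries and no age term (edgeR adjusted p 0.394), where 1 of 13165 features was called. It was also lost with all 6 libraries (0.637), where 0 of 14295 features were called.

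The Cox6b2 UMIs came from many cells. In KO P6, 898 UMIs lay in 307 of 857 endothelial cells, the 10 highest cells held 12.8% of them, and kept cells outside the endothelial gate held 1 UMI in 95 cells. With rapamycin the 10 highest endothelial cells held 36.6% of 134 UMIs. In mitotic endothelial cells Cox6b2 measured 13.7 CPM in WT P6, 74.0 in KO P6, 8.22 in WT P10 and 10.9 in KO P10. It was at 7.71 CPM there with vehicle and 5.06 with rapamycin, and WT P10 held only 11 UMIs. In the other endothelial cells it measured 4.94 CPM in WT P6, 99.1 in KO P6, 6.19 in WT P10 and 34.5 in KO P10. Their levels were 23.3 CPM with vehicle and 6.07 with rapamycin. Outside the gate Cox6b2 measured 7.26 CPM in WT P6, 1.95 in KO P6, 24.7 in WT P10 and 19.9 in KO P10. It was at 13.5 CPM there with vehicle and 21.3 CPM with rapamycin. These levels rest on 1 to 12 UMIs a library, so they are uncertain. Whether these UMIs came from cells of another type was not tested. Its neighbours Kmt5c (histone methyltransferase) and Fam71e2 do not overlap it. Kmt5c measured 17.5 CPM in WT P6 and 15.4 CPM in KO P6, and Fam71e2 was at most 0.177 CPM in all libraries. Cox6b1, the common isoform of the same subunit, measured 613, 639, 512, 569, 554 and 400 CPM for the P6 pair (WT, KO), the P10 pair (WT, KO) and the P9 pair (vehicle, rapamycin), which is the order used below. Its ratio was 1.04 (1.01 to 1.08) at P6 and 1.11 (1.08 to 1.14) at P10, inside the limit at both ages.

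Next to Cox6b2, the members higher in KO at both ages came from several complexes. Atp5g1 (chromosome 11, 96068852 to 96075670), which encodes the c-ring subunit of ATP synthase, measured 259, 343, 209, 311, 365 and 204 CPM. It was higher in each KO library without rapamycin than in both WT libraries, while with rapamycin it lay at the level of WT P10. Its ratio was 1.32 (1.26 to 1.39) at P6, 1.49 (1.44 to 1.55) at P10 and 0.559 (0.540 to 0.578) in the P9 pair, with an edgeR log2 fold change of 0.46 (SE 0.11, adjusted p 0.0752). The other genes for the same c-ring protein differed less between genotypes. Atp5g2 measured 478, 522, 437, 517, 553 and 400 CPM, and Atp5g3 192, 221, 160, 187, 218 and 151 CPM. Both were inside the limit in the genotype pairs and lower with rapamycin, at 0.723 (0.706 to 0.741) and 0.692 (0.665 to 0.721).

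Ndufab1, the mitochondrial acyl carrier protein that is also a complex I subunit, measured 167, 219, 122, 165, 192 and 131 CPM. Its ratio was 1.31 (1.23 to 1.39) at P6 and 1.35 (1.28 to 1.42) at P10, and its edgeR log2 fold change 0.38 (SE 0.11, adjusted p 0.0978). Among the assembly factors, Ndufaf4 of complex I measured 23.9, 37.3, 21.8, 29.6, 31.1 and 29.8 CPM, and was nearly equal in the P9 pair. Sdhaf2, which helps attach the flavin to Sdha, measured 32.6, 40.9, 24.0, 34.8, 33.7 and 28.0 CPM. Neither passed the genotype test (adjusted p 0.0821 and 0.115).

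Only 3 of 85 members were lower in KO at both ages and higher with rapamycin, a pattern of signs found in 23.4% of the 5148 features compared in all 3 pairs. These were Cox7a2l, Uqcrh and Ndufa6. The inverse pattern, higher in KO at both ages and lower with rapamycin, was found in 47 members (55.3%) and in 33.5% of features. Cox7a2l (chromosome 17, 83501918 to 83517330), a protein that joins complexes III and IV in supercomplexes, measured 667, 417, 626, 554, 481 and 698 CPM. It was the only member past the limit with a higher level under rapamycin, at 1.45 (1.42 to 1.48), and the rapamycin library was above both WT libraries. Its genotype ratio was 0.624 (0.601 to 0.648) at P6 and 0.885 (0.864 to 0.907) at P10, which did not pass the test (edgeR log2 fold change -0.46, SE 0.15, adjusted p 0.145).

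Uqcrh (chromosome 4, 116066965 to 116075071), the hinge protein of complex III, measured 735, 539, 757, 626, 656 and 729 CPM. Both WT libraries and the rapamycin library were above the other 3. Ndufa6 (chromosome 15, 82350140 to 82354322), an accessory subunit that docks the acyl carrier protein onto complex I, measured 298, 227, 349, 244, 224 and 252 CPM. Its WT levels were the highest, and the rapamycin library was closer to the KO libraries. The ratios of Uqcrh were 0.734 (0.709 to 0.759), 0.828 (0.809 to 0.847) and 1.11 (1.09 to 1.13), and those of Ndufa6 were 0.761 (0.721 to 0.803), 0.699 (0.675 to 0.724) and 1.13 (1.09 to 1.17). The adjusted p of the genotype test was 0.127 for Uqcrh and 0.0649 for Ndufa6.

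**Figure D3:**
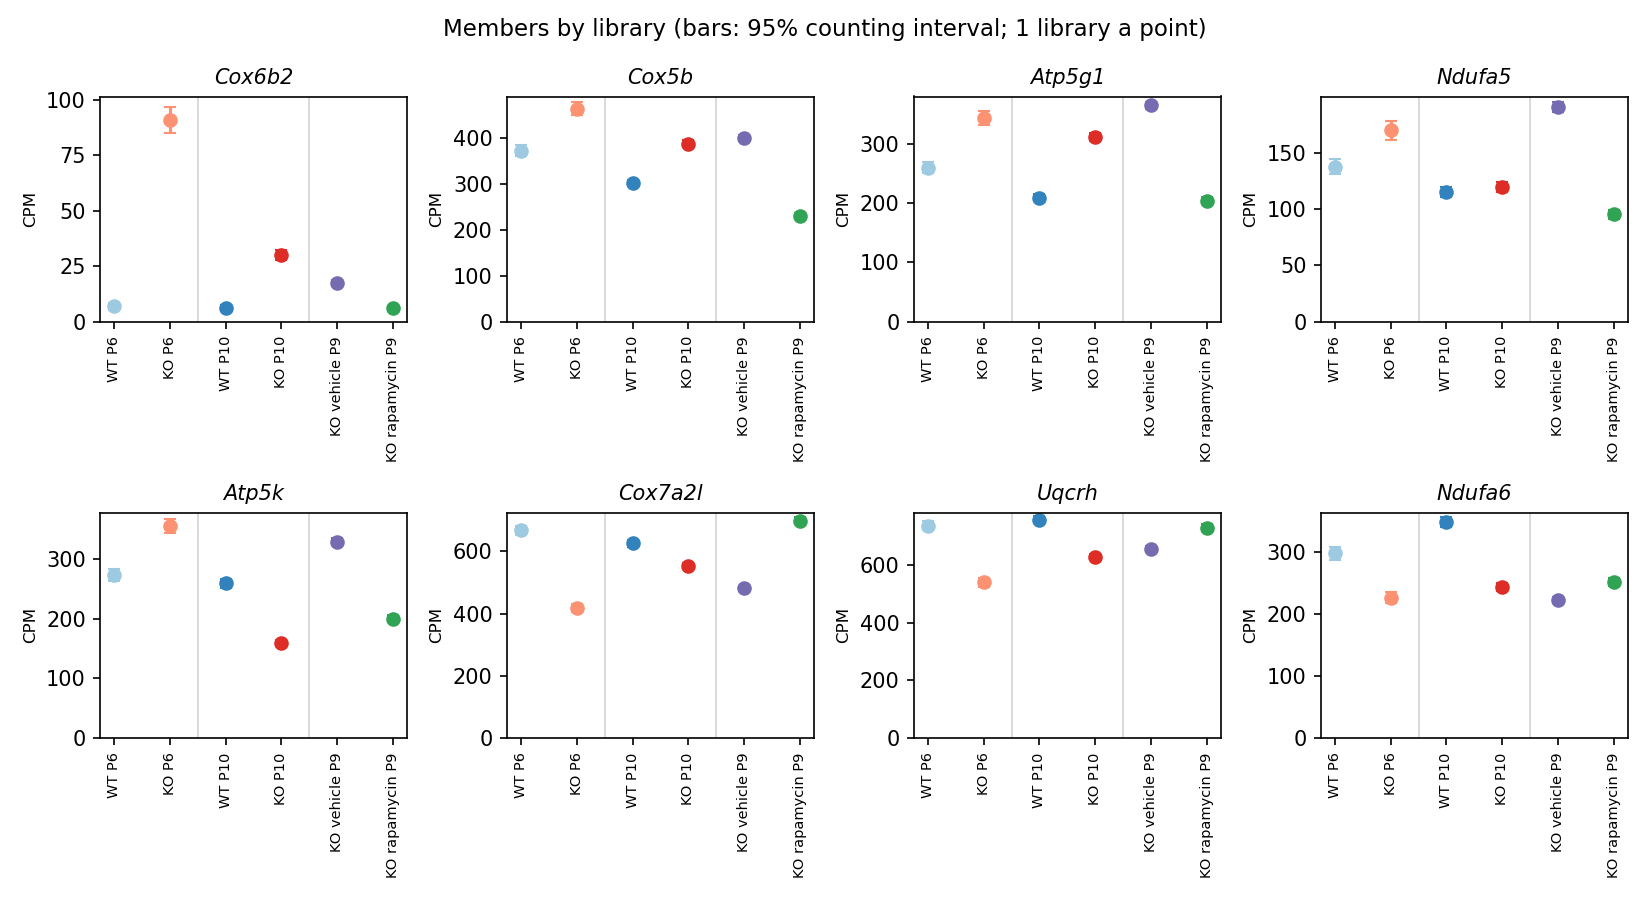
CPM (vertical axes, from 0) of 8 members in each library, with 95% counting intervals; grey lines part the P6, P10 and P9 pairs. Cox6b2, Cox5b and Atp5g1 were higher in KO than in WT at both ages and low with rapamycin, whereas Cox7a2l, Uqcrh and Ndufa6 had the inverse order.

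Among members at the minimum level, which leaves out Cox6b2, those furthest below vehicle with rapamycin were Ndufa5, Atp5g1, Cox5b, Ndufc1 and Atp5k. Ndufa5 (chromosome 6, 24518666 to 24528013), an accessory subunit of the arm of complex I that faces the matrix, measured 138, 170, 115, 120, 190 and 95.1 CPM, and its ratio with rapamycin was 0.50 (0.476 to 0.525). Ndufc1, of the membrane arm, measured 182, 189, 140, 150, 265 and 157 CPM. Both had their highest level with vehicle. Rapamycin was the lowest library for Ndufa5 but not for Ndufc1, where both P10 libraries were lower. Cox5b, a nuclear subunit of complex IV that binds zinc, measured 373, 465, 303, 388, 402 and 231 CPM, a ratio of 0.576 (0.558 to 0.594). Its partner Cox5a measured 448, 538, 412, 538, 577 and 355 CPM, a ratio of 0.616 (0.600 to 0.632). For both genes every KO library without rapamycin was above both WT libraries, and the rapamycin library was the lowest of the 6.

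**Figure D4:**
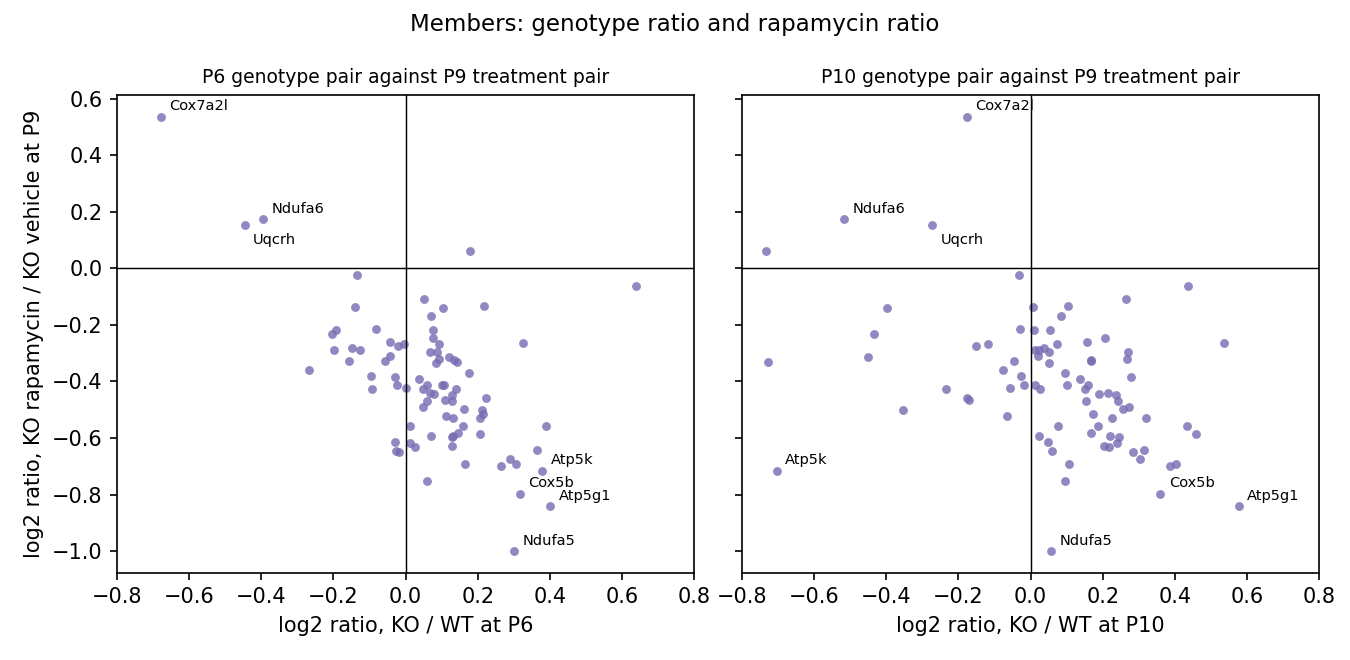
Log2 ratio of rapamycin to vehicle (vertical axis) against the log2 ratio of KO to WT at P6 (left) and P10 (right), 1 point for each member at the minimum level in both pairs; Cox6b2 is under the minimum in the P9 pair and is not drawn. Pearson's r is -0.59 on the left and -0.40 on the right over 85 members, as a description. Spearman's rank correlation is -0.48 on the left and -0.43 on the right.

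Across members the 3 sets of ratios, which share no library, were related as follows. The P6 and P10 ratios had a Pearson correlation of 0.36 over 85 members, against 0.72 over 5148 features. The P6 and P9 ratios had one of -0.59 in members and -0.44 in all features, and P10 and P9 -0.40 and -0.62. By rank (Spearman) P6 and P10 had 0.41 in members and 0.66 in all features. P6 and P9 had -0.48 and -0.50 by rank, and P10 and P9 -0.43 and -0.62. For P6 and P9 the member value was thus below that of all features by Pearson only. Members are not independent of each other, and these values describe the 6 libraries only.

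The better known subunits of each complex, some with redox centres or catalytic sites and others accessory, spread widely in the P9 pair. In complex I, Ndufs1 (iron-sulfur clusters) measured 47.2, 49.8, 39.6, 39.9, 36.2 and 31.1 CPM, a rapamycin ratio of 0.858 (0.782 to 0.941). Ndufv1, which binds NADH, was at 0.779 (0.745 to 0.814), and the accessory subunit Ndufa9 at 0.647 (0.610 to 0.686). In complex II the flavoprotein Sdha was at 0.927 (0.871 to 0.986) and the membrane anchor Sdhd at 0.912 (0.841 to 0.989), while the iron-sulfur subunit Sdhb was at 0.736 (0.699 to 0.775) and the other anchor Sdhc at 0.661 (0.614 to 0.711). Thus the 4 subunits of this complex split evenly, with Sdhb and Sdhc past the limit.

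Within complex III, the core proteins Uqcrc1 and Uqcrc2 were at 0.762 (0.730 to 0.795) and 0.983 (0.939 to 1.03), the Rieske iron-sulfur protein Uqcrfs1 at 0.859 (0.823 to 0.895) and Uqcrb at 0.734 (0.714 to 0.755). Uqcrc2 is the only one of these 4 whose interval includes 1. In complex IV, Cox4i1, the common isoform of subunit 4, was at 0.818 (0.805 to 0.832), Cox6c at 0.696 (0.681 to 0.711), Cox7c at 0.729 (0.713 to 0.745) and Ndufa4 at 0.662 (0.648 to 0.677). For ATP synthase, the catalytic beta subunit Atp5b measured 1011, 1074, 795, 959, 646 and 526 CPM, a ratio of 0.815 (0.797 to 0.833), and the gamma subunit Atp5c1 was at 0.819 (0.796 to 0.843). The central stalk subunits Atp5d and Atp5e were lower, at 0.638 (0.622 to 0.654) and 0.744 (0.729 to 0.760). None of these subunits passed the genotype test, with adjusted p from edgeR between 0.339 (Ndufv1) and 0.983 (Cox7c).

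Among the isoforms of complex IV, Cox4i2 (chromosome 2, 152754173 to 152765037), the oxygen-responsive isoform of subunit 4, measured 40.8, 41.9, 39.2, 23.8, 18.6 and 19.0 CPM, so it was low in KO P10 and both P9 libraries. The 8 pericyte markers, all detected in every library, summed to 1065, 1065, 1004, 523, 242 and 444 CPM in the same cells. In endothelial-gated cells with UMIs of at least 2 pericyte markers Cox4i2 measured 128 to 281 CPM, and in the other gated cells 0.598 to 2.51 CPM. Its KO to WT ratio of 0.608 (0.545 to 0.678) at P10 thus moved with the pericyte markers, whose part in it was not tested. Cox7a1, the isoform of contractile tissue, had 0.896 to 1.99 CPM, too low to compare, while Cox7a2, its common counterpart, measured 431, 475, 441, 448, 497 and 370 CPM. Cox6a1 and Cox8a, the common isoforms of their subunits, were at 0.773 (0.750 to 0.797) and 0.831 (0.814 to 0.848) with rapamycin, and their muscle isoforms Cox6a2 and Cox8b had 1 UMI each in all libraries together.

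**Figure D5:**
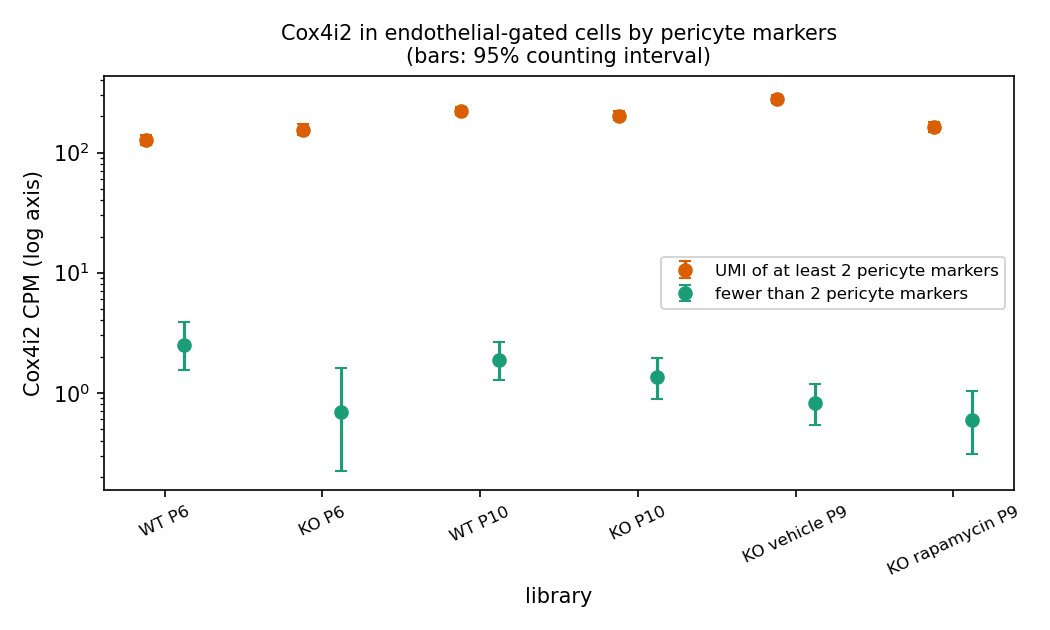
Cox4i2 level (CPM, log axis) in each library, in endothelial-gated cells with UMIs of at least 2 of 8 pericyte markers and in the remaining gated cells, with 95% counting intervals. The first set lies at 128 to 281 CPM and the second at 0.598 to 2.51 CPM in every library.

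The members lowest in KO at P10 were Ndufaf7, Ndufa3, Cox4i2, Atp5k and Ndufa6, and several of the lower members have short transcripts. Atp5k (chromosome 5, 108433244 to 108434448), the subunit e of ATP synthase that holds dimers together, measured 274, 356, 260, 159, 330 and 201 CPM. It was higher in KO at P6, with a ratio of 1.30 (1.24 to 1.37), and lower in KO at P10, at 0.614 (0.588 to 0.640). Ndufa3, an accessory subunit of complex I, measured 353, 389, 309, 187, 248 and 197 CPM and also had its lowest level in KO P10. Of 28 members with a median annotated transcript under 600 bases, 7 were lower at P10, and of 59 longer ones 2 were, with median log2 ratios of -0.04 and 0.16. Over all features with an annotated length 28 of 134 short and 853 of 5646 longer ones were lower at P10. At P6 these medians were 0.11 and 0.07. The same split at P10 gave -0.08 and 0.16 for cytosolic ribosomal proteins and 0.02 and 0.06 for all features. Of the mitochondrial genome, mt-Nd3, mt-Atp8 and mt-Nd4l were lower in KO P10 as well, with log2 ratios of -1.03, -0.96 and -0.87, while mt-Nd6, under the minimum level at 5.59 and 5.55 CPM, had -0.01. The part of transcript length in these ratios was not tested.

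Members on the X chromosome can be read only with the Xist difference in view, since WT P6 was the only library with a high Xist level. Ndufa1 measured 184, 198, 208, 158, 128 and 116 CPM, and Ndufb11 measured 322, 292, 297, 298, 342 and 311 CPM. Cox7b, a small subunit of complex IV, measured 255, 312, 227, 281, 409 and 257 CPM, with KO above WT at both ages. Levels of the 3 genes in WT P6 lay inside the range of the other libraries, and the part of sex in the P6 pair was not tested.

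Genes outside the name rule were taken from lists of the same pathway. As a sum, the 13 subunits encoded in mitochondrial DNA were not lower with rapamycin. Past the limit 0 of 13 were lower and 2 were higher (15.4%), where 26.3% and 17.9% of all features were. Their sum was 36904 CPM with vehicle and 40319 CPM with rapamycin, a ratio of 1.09 (1.09 to 1.10). The 2 higher ones were mt-Nd3 (505 and 738 CPM) of complex I and mt-Atp8 (222 and 283 CPM) of complex V. Inside the limit 4 of 13 had a log2 ratio below 0. Among them were mt-Nd5, at a ratio of 0.848 (0.833 to 0.864), and mt-Nd6, at 0.879 (0.815 to 0.948). At P6 the mitochondrial sum was lower in KO, 30910 against 26470 CPM, a ratio of 0.856 (0.852 to 0.861), and at P10 it was 30231 against 29089 CPM, a ratio of 0.962 (0.959 to 0.966). Cells with over 10% mitochondrial UMIs had been removed, which limits these sums. None of the 13 passed the genotype test. At an unadjusted p under 0.05 with edgeR 0 were higher and 2 lower, where 12.9% of all features were higher and 10.4% lower.

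Other nuclear genes of mitochondria lay lower with rapamycin, like the members. Over all features 26.3% were past the limit and lower in this pair, and 17.9% were higher. The mitochondrial ribosomal proteins were lower in 57 of 70, with a median log2 ratio of -0.55. Import, chaperone and cristae genes were lower in 17 of 23 (median -0.42), and assembly factors outside the rule in 11 of 18 (median -0.37). Enzymes of the TCA cycle and pyruvate dehydrogenase were lower in 8 of 17 (median -0.28), led by Idh2, mitochondrial isocitrate dehydrogenase, at -1.04. Of 9 carriers and further subunits 5 were lower (median -0.36), and Atpif1, the inhibitor protein of ATP synthase, went from 578 CPM with vehicle to 244 CPM with rapamycin. Cytosolic ribosomal proteins had a median of 0.09, with 7 of 82 lower (8.54%) and 8 higher (9.76%), both under the shares of all features. The sum of the 12 mitotic markers also moved in this pair, from 980 CPM with vehicle to 373 CPM with rapamycin.

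Between genotypes, 4 of 78 mitochondrial ribosomal proteins rose in KO by edgeR and 0 fell, where 3.05% and 1.69% of all features did. At P10, 41 of 71 were past the limit and higher in KO, against 22.1% of all features. Among import and chaperone genes Tomm5, of the outer membrane import channel, and Hspd1, the mitochondrial chaperonin, rose, by 0.62 (adjusted p 0.0323) and 0.68 (adjusted p 0.0248) on the log2 scale, higher in both pairs. Hspd1 measured 114, 178, 74.7, 127, 166 and 112 CPM. No listed carrier, TCA cycle enzyme or outside assembly factor passed. At an unadjusted p under 0.05 with edgeR, 3 of 9 carriers were higher and 0 lower, 4 of 17 TCA cycle enzymes higher and 0 lower, and 5 of 34 assembly factors higher and 3 lower, where 12.9% of all features were higher and 10.4% lower. Cycs, cytochrome c itself, measured 220, 303, 164, 213, 151 and 134 CPM (edgeR log2 fold change 0.39, adjusted p 0.101).

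Regulators known to drive these genes were mostly inside the limit. At P10 only Gabpb1, a GABP subunit, was past it among 5 at the minimum level, with a log2 ratio of 0.32. Over all features 22.1% were higher and 15.4% lower in that pair. Of 5 biogenesis regulators at the minimum level in the P9 pair 0 were past the limit, with a median of 0.05. Of all features 26.3% were lower and 17.9% higher there. Nrf1 measured 20.4, 20.5, 17.4, 18.9, 22.6 and 23.4 CPM and Yy1, which acts with mTORC1, 123, 116, 121, 128, 226 and 213 CPM. Esrra stayed between 15.1 and 21.8 CPM, and Tfam, the mitochondrial DNA packaging factor, between 20.3 and 28.7 CPM. Ppargc1a was at most 0.795 CPM and Ppargc1b at most 2.78 CPM. No regulator of the list passed the genotype test. At an unadjusted p under 0.05 with edgeR 0 of 11 were higher and 0 lower, where 12.9% and 10.4% of all features were.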

How the data were processed

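The deposited files are matrices of UMI counts per gene and barcode, made by the authors with Cell Ranger 6.0.1 against mm10 per the submitters' processing notes, with no normalization. A minimum of 500 genes and a maximum of 10% mitochondrial UMIs left out 6.41% to 28.3% of the barcodes of a library, and no doublet caller was run. An alternative leaves out cells with UMIs of at least 2 markers of another cell type. Each library's endothelial UMIs were summed by gene, and cells with UMIs of at least 3 of 12 mitotic markers were called mitotic. CPM ratios use a prior count of 2 on the log2 scale and carry exact conditional binomial intervals, and CPM levels exact Poisson intervals. Genotype was tested with edgeR 4.0.16 (R 4.3.3), TMM scaling and filterByExpr, with DESeq2 1.42.0 as an alternative, and the procedure was tested on simulated data. Groups come from the labels. Coordinates and lengths come from GENCODE vM21, which matched all 92 members. The P9 libraries carry another barcode list than the others and entered the genotype test in 1 alternative only.

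Members, lists, motifs and tests were chosen with earlier results of these data known. Named members are core subunits, isoform families and X-linked members, the 5 highest and 5 lowest in each pair, the 5 each way with 1 sign at both ages, and members called by edgeR. Cox7b2, Ndufaf8, Tomm5 and Kmt5c with Fam71e2 were named after their values were seen, and 1 member of the rule is not reported here. Many of these genes have processed pseudogene copies, and the loss of reads shared with a copy was not tested. Intervals cover counting error only, since 1 library stands for each group.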

Additional observations from a re-analysis of the deposited data

Results flagged for a closer look

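Atp5k, the subunit e of ATP synthase, had genotype ratios of opposite sign at the 2 ages. Its log2 ratio of KO to WT was 0.38 at P6 and -0.70 at P10, so it was higher in KO at the first age and lower at the second. The difference was not tested, since each age has 1 library of each genotype.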

How the results depend on the processing

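The main log2 ratios of the members' sum were 0.04 (P6), 0.04 (P10) and -0.40 (P9), and no setting tried changed their sign. They were 0.050, 0.046 and -0.43 with at most 5% mitochondrial UMIs, 0.024, 0.018 and -0.36 without mitotic cells, 0.050, 0.067 and -0.40 without cells carrying markers of another type, 0.021, 0.023 and -0.41 with TMM library sizes, and 0.015, 0.00756 and -0.36 with each cell weighted equally. Without mitochondrial, ribosomal and haemoglobin genes in the total the P10 and P9 values were 0.026 and -0.36. At 1.5-fold the members past the limit were 2 higher and 1 lower at P6, 1 and 4 at P10, and 0 and 19 at P9. Without mitotic cells 3 were higher at P6 at the main limit. The shares of all features were not counted in these settings, so these counts cannot be set against a background. With no filter edgeR called 4 members higher and 2 lower (Atp5g1, Cox6b2, Cox7a2l, Ndufa6, Ndufaf4, Ndufaf5). Over all 20972 features of that fit it called 1197 higher and 813 lower. Without mitotic cells 1 member was called each way, beside 572 and 339 of 12952 features. Without cells carrying markers of another type 3 members were higher and 1 lower, beside 730 and 490 of 12458 features. With no age term 0 members and 1 of 13165 features were called. With all 6 libraries 0 members and 0 of 14295 features were, so these last settings say nothing particular about the members. Cox7a1, at under 2 CPM, changed sign without cells carrying markers of another type, to 0.57 at P6 and 0.35 at P10. The cause of these shifts was not tested. Libraries were paired by harvest age through the age term of the genotype test, and the fit with no age term is the one without this pairing. The labels carry no replicate numbers.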
